A study of Mus musculus with 6 samples.

Results

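DNA replication and S phase genes were followed in double-positive (DP) thymocytes, the CD4+CD8+ T cell precursors that make up most of the thymus. The 49 members were taken by gene symbol from a fixed list, out of 43430 counted mouse genes, and all 49 passed the filter on low counts that left 13039 genes for testing. The KO group (3 libraries) was sorted from Mettl14fl/fl mice carrying CD4-Cre, and the WT group (3 libraries) from littermate controls, all on strain C57BL/6. CD4-Cre is a transgene in which Cd4 regulatory sequences drive the Cre recombinase, so deletion of the floxed Mettl14 alleles takes place in cells that express CD4 or descend from such cells. The sources used here do not give the alleles carried by the controls, the age and sex of the mice or the number of mice behind each library. The p-values below therefore measure only how these libraries spread, and part of that spread may be technical. Each library is bulk RNA-seq of FACS-sorted cells (purity above 98% per the labels), and in bulk RNA fewer cells of a type and less RNA per cell cannot be told apart.

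A cell copies its genome once per cycle. Origins are licensed when ORC, CDC6 and CDT1 load the MCM helicase onto DNA; in S phase CDC45 and the GINS complex turn that helicase into an active fork, primase and the polymerases synthesise DNA behind it, PCNA clamps the polymerases in place and LIG1 seals the lagging-strand fragments. E2F factors and cyclin E time this programme, and many of its genes are known E2F targets. In the thymus, proliferation is concentrated at the transition from double-negative to double-positive cells, in large DP blasts, while the small DP cells that follow are resting. Transcripts of replication genes are carried mostly by cycling cells. METTL14 is a subunit of the m6A methyltransferase, which methylates adenosines in RNA.

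Counts in genes ranged from 29500254 to 33377056 per library. Values below are read counts scaled to the library total (CPM) after TMM scaling, and levels compared between genes are CPM per kilobase of principal transcript (RPKM). Mettl14 itself had 42.2, 40.3 and 36.4 CPM in the KO libraries, against 52.1, 58.8 and 55.8 CPM in the WT libraries. The groups did not overlap (log2 fold change -0.49, SE 0.09, edgeR adjusted p = 0.289). Which exons are deleted is not given, so a gene-level count checks the labels only in part. Mettl14 passed the threshold with DESeq2 on the same genes (adjusted p = 0.001995) and, at 0.00401, in the authors' deposited table, which they labelled as paired. Of the 10 DP markers, Cd4 had 1864 to 2230 CPM in KO and 1866 to 2166 CPM in WT libraries, and Rag1 had 4843 to 5308 CPM in KO and 4589 to 5067 CPM in WT libraries. Summed markers of double-negative and immature thymocytes were at 568 to 743 CPM in KO and 488 to 522 CPM in WT libraries, which did not overlap. Most of that sum is Notch1 (345 to 447 CPM in KO and 280 to 324 CPM in WT libraries) and Notch3 (110 to 157 CPM in KO and 95.99 to 101 CPM in WT libraries). Of the 8 tested, 4 had all KO libraries above all WT libraries (6.58% of all tested genes) and 1 had them all below (5.97%). At an unadjusted p under 0.05 by edgeR, 4 were higher in KO (3.4% of all tested genes) and 1 lower (3.31%). Ptcra had 47.0 to 54.1 CPM in KO and 37.1 to 42.0 CPM in WT libraries. The markers did not all move as one: Cd44 had 5.74 to 9.11 CPM in KO and 10.6 to 11.8 CPM in WT libraries, and 3 of the 8 tested had negative fold changes. Myeloid and dendritic markers summed to 99.7 to 131 CPM in KO and 96.5 to 101 CPM in WT libraries, mostly Cst3 and Itgam. Of the 8 tested, 7 had positive fold changes and 1 negative (median log2 fold change 0.91). At an unadjusted p under 0.05 by edgeR, 2 were higher in KO (3.4% of all tested genes) and 0 lower (3.31%). All KO libraries lay above all WT libraries for 2 (6.58%). Red cell markers summed to under 1 CPM in every library. Markers of NK and innate lymphocytes were low but also did not overlap, with sums of 1.06 to 2.79 CPM in KO and 0.683 to 0.908 CPM in WT libraries; the defining NK gene Ncr1 was at 0 in 5 of 6 libraries. The part of these markers in the results below was not tested.

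In no replication gene did KO and WT libraries separate. None of the 49 was called in KO against WT by edgeR's quasi-likelihood test at an adjusted p under 0.05, where 0.0383% of all tested genes were called, and the lowest adjusted p among them was 0.713 (Gins2). At an unadjusted p under 0.05, 1 member was lower in KO (Gins2), beside 3.31% of all tested genes, and none was higher, beside 3.4%. DESeq2 and limma-voom also called 0 members, each with 1 at an unadjusted p under 0.05, where they called 0.675% and 0.0537% of all genes tested. Of the 49 fold changes, 47 were negative, the median log2 fold change was -0.11 beside -0.004 over all genes tested, and the range ran from -0.40 (Gins2) to 1.01 (E2f2). For no member did the 3 KO values lie all below or all above the 3 WT values, whereas 5.97% of all tested genes had KO below WT throughout and 6.58% had KO above WT throughout. The median depends on single WT libraries: leaving out WT replicate 1 gave -0.31, leaving out WT replicate 2 gave -0.01 and leaving out WT replicate 3 gave -0.02. The count of negative fold changes depends on them too: it was 28 of 49 without WT replicate 2 and 29 of 49 without WT replicate 3.

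What the members shared was an order of libraries, with the 3 KO libraries lying inside the spread of the 3 WT libraries. WT replicate 1 was the lowest of all 6 libraries for 43 of 49 members, where 25.8% of all tested genes had it lowest, and the highest for none, where 27.7% of all tested genes had it highest. WT replicates 2 and 3 stood at the other end: 48 of 49 members were highest in one of them (31 in replicate 2 and 17 in replicate 3), against 28.8% of all tested genes. All 3 KO libraries lay below both WT replicates 2 and 3 for 46 of 49 members (12.8% of all tested genes), and for 40 of 49 they lay above WT replicate 1 as well, a pattern held by 4.32% of all tested genes. WT replicate 1 was known from earlier results of these data to stand apart, so these counts describe that library and carry no test. The 9 members outside the pattern were Gins2, Gins4, Pold2, Rfc2, Rpa1, Rpa2, Chaf1b, Ccne2 and E2f2.

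In size, the level in WT replicate 1 ran from 58.1% (Tyms) to 98.6% (Gins2) of the median of the other 5 libraries, with a median over members of 77.2%. Leaving E2f2 aside, the members' summed CPM was 7058, 6769 and 7407 in the KO libraries, against 5618, 8738 and 8553 in the WT libraries. Over the same 48 members the KO libraries had a coefficient of variation of 0.949% (Uhrf1) to 17.5% (Ccne1) and a median of 6.38%, while the WT libraries varied by 2.37% (Rpa1) to 35.7% (Ccne2), with a median of 24.4%. For E2f2 it was 83.5% in KO and 12.4% in WT libraries. KO libraries varied less than WT libraries for 47 of 49 members. The share of all tested genes that do so is not given here, so the count is not read as tighter expression in KO. The ratio of WT replicate 2 to WT replicate 3 ran from 0.791 (Ccne2) to 1.13 (Rfc4), so the WT spread rests largely on WT replicate 1. Early response genes were high in the same library: Fos had 5.94, 3.76 and 2.54 CPM in KO, against 83.7, 7.69 and 3.93 CPM in WT, and the part of such genes in the level of the replication genes was not tested.

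**Figure D1:**
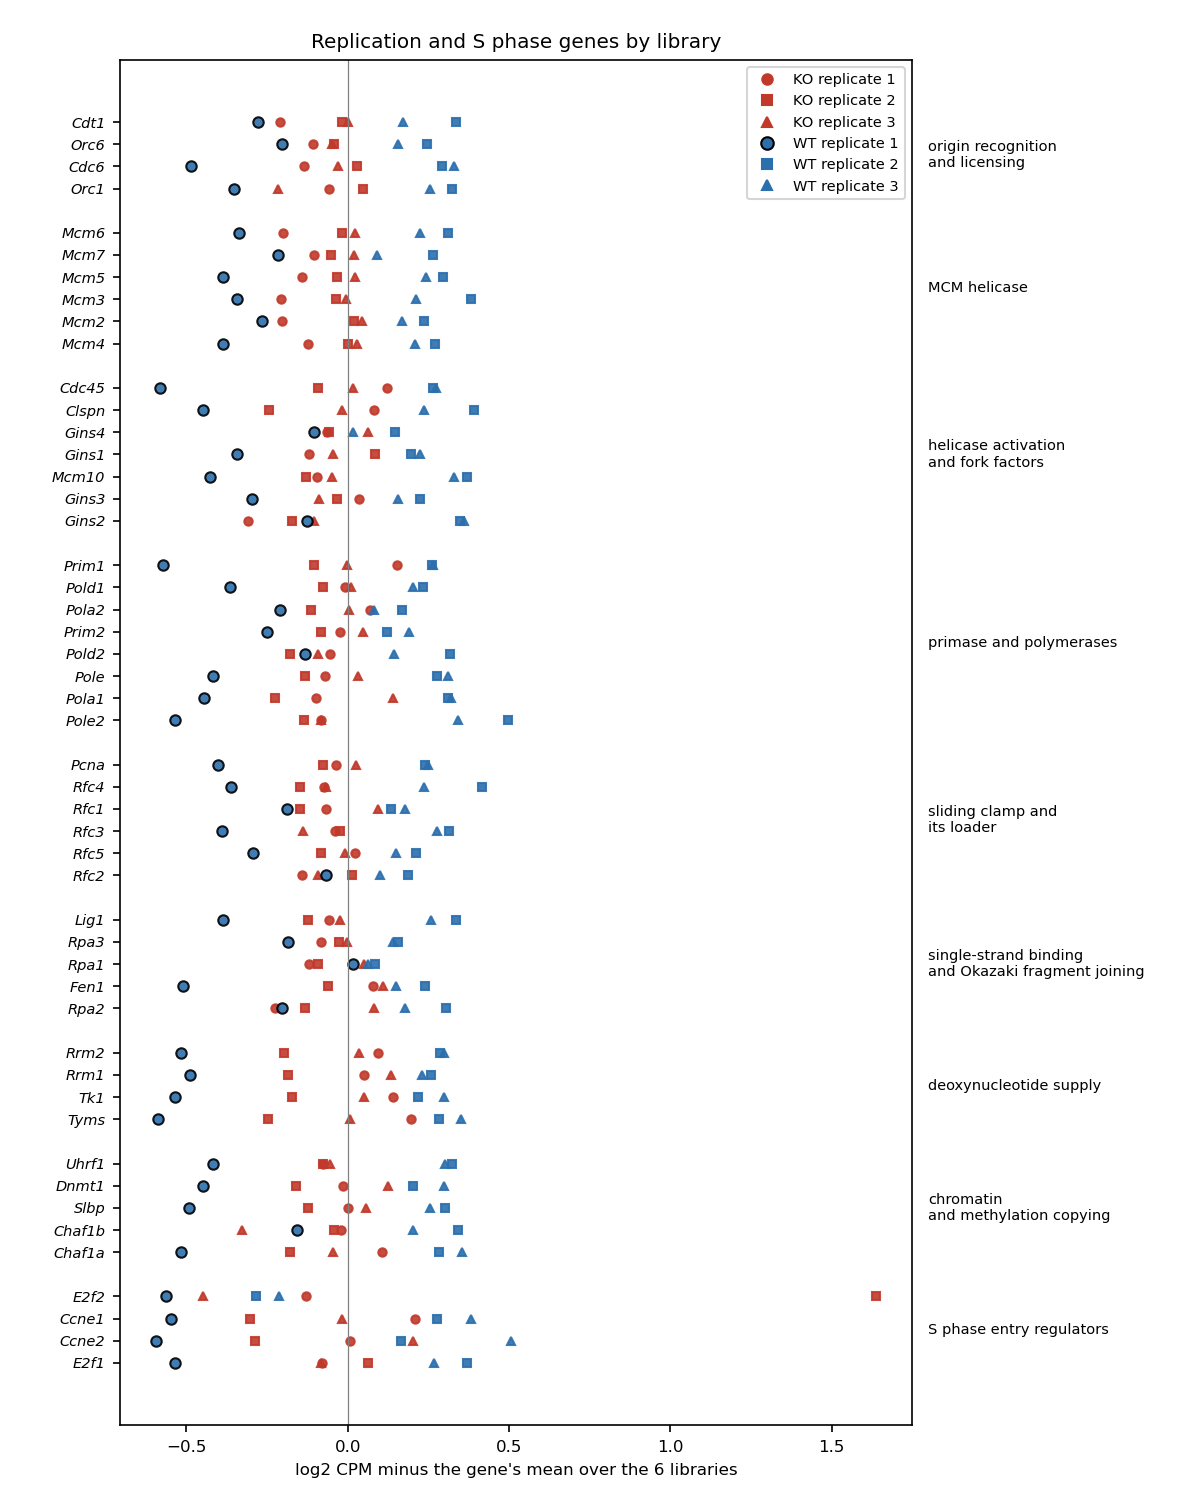
Level of each of the 49 genes in each library, as log2 CPM minus the gene's mean over the 6 libraries, grouped by role and ordered within a role by level per length. Red symbols are KO and blue symbols WT; the outlined blue circles (WT replicate 1) lie at the left end for 43 genes, blue squares and triangles (WT replicates 2 and 3) at the right end for 48, and the KO2 value of E2f2 lies far to the right of all other points.

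Leaving out WT replicate 1 changed the counts and not the calls. Without it, 0 of 49 members were called (lowest adjusted p 0.158, for Mcm10 and Uhrf1), where 0.0605% of all genes tested were called. At an unadjusted p under 0.05, 44 of 49 were lower in KO, where 4.23% of all genes tested were lower at that p, and 48 of 49 fold changes were negative. In that comparison KO means were 68.4% (Gins2) to 93.2% (Gins4) of the mean of WT replicates 2 and 3, with E2f2 at 188%. With replicate 1 left out the WT group holds 2 libraries, and the library was left out because of its known position, so these values show how far 1 library decides the comparison and are no independent evidence of a lower level in KO. The summed markers of immature thymocytes, carried mostly by Notch1 and Notch3 as given above, were higher in all 3 KO libraries than in any WT library, and their part in this comparison was not tested.

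**Figure D2:**
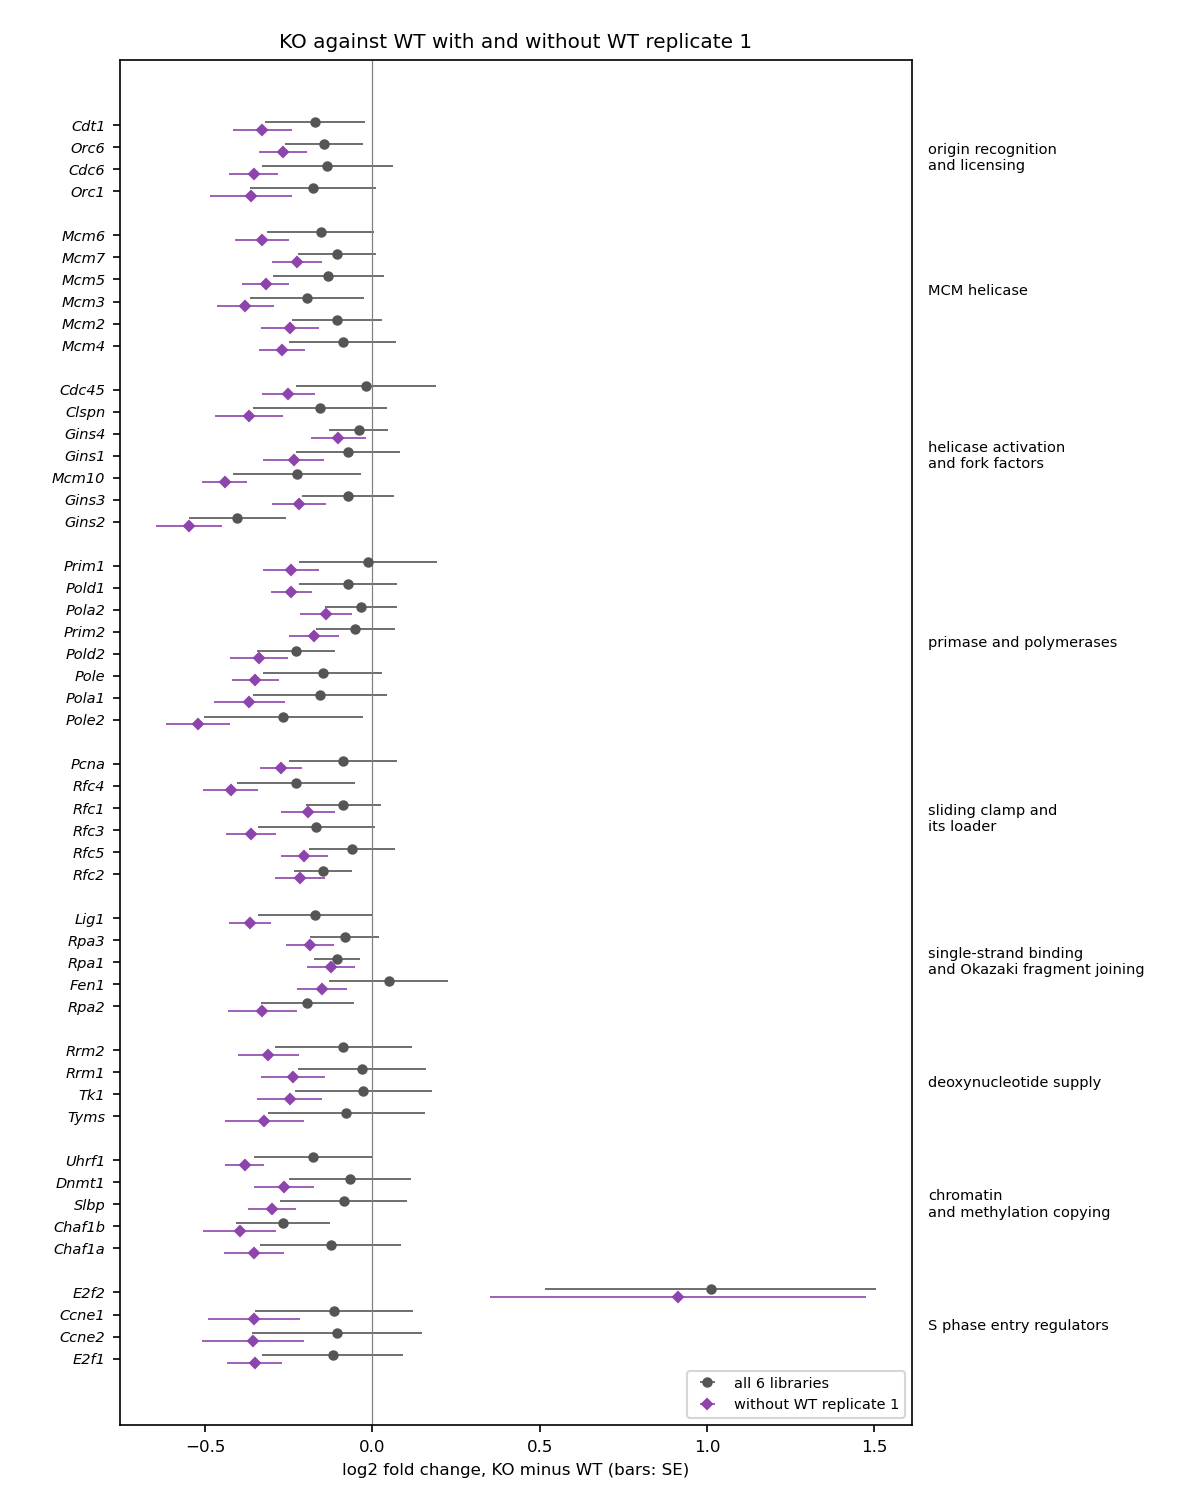
Log2 fold change of KO against WT for each gene, with its standard error, from all 6 libraries (grey circles) and without WT replicate 1 (purple diamonds). With all libraries 47 of 49 points lie below 0, around a median of -0.11; without WT replicate 1 the points shift left to a median of -0.31, with E2f2 alone above 0.

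Many of these genes have E2F binding words close to an annotated start. RefSeq promoters (GRCm38.p6, 250 bases before to 50 bases after the start) matched 41 of the 49 members. A gene with several promoters was counted if any of them held the word. One of the words TTTCCCGC, TTTCGCGC, TTTGCCGC or TTTGGCGC, read on both strands and allowed to overlap, was present for 17 of 41 members (41.5%), 17 of 43 further replication genes (39.5%), 1 of 33 mitosis genes (3.03%) and 704 of 27025 genes in the whole table (2.60%). For Lig1, Uhrf1 and Dnmt1 the E2F word lay only at an inner start, and the promoter at the outermost start held none. CCAAT on either strand was present for 27 of 41 members (65.9%), 25 of 33 mitosis genes (75.8%) and 41.1% of the whole table. The level in WT replicate 1 had a median of 77.7% of the other libraries over the 17 members with the E2F word, 75.6% over the 24 without and 78.1% over the 8 with no promoter in the table. The 150 bases before the start are shown for the member with the highest level per length in each role that has such a word there, with E2F words in capitals, 5′ to 3′ on the strand of the gene, to show how differently placed and oriented the words are. The Mcm6 stretch holds 3 words, the first pair of which share bases; the nearest to the start lies 10 bases before it in Rfc3, and the farthest 138 bases before it in Cdc6 and Pola1. A match is a description of letters and not of binding.
Cdc6 (chr11:98908001-98908150, + strand): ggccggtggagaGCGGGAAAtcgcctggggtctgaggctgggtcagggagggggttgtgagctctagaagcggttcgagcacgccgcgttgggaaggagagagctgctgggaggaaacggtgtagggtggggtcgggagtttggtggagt
Mcm6 (chr1:128359706-128359855, - strand): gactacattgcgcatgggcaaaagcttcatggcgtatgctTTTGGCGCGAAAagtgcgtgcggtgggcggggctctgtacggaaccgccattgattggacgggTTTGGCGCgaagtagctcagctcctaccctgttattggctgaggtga
Gins3 (chr8:95633409-95633558, + strand): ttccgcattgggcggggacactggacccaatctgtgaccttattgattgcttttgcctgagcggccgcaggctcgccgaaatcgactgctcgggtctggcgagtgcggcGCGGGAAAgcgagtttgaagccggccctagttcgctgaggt
Pola1 (chrX:93632156-93632305, - strand): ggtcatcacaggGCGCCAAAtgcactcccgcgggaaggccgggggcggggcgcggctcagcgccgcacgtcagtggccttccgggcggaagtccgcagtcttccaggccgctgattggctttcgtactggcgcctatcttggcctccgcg
Rfc3 (chr5:151651209-151651358, - strand): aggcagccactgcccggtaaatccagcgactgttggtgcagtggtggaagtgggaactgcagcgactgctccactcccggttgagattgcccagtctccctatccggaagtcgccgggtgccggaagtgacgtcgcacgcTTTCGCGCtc

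Among the origin recognition and licensing genes, Orc1 and Orc6 encode subunits of the origin recognition complex, and Cdc6 and Cdt1 the loaders that bring MCM to it. Cdt1 had 88.1, 101 and 102 CPM in KO libraries, against 84.1, 129 and 115 CPM in WT libraries (log2 fold change -0.17, SE 0.15, edgeR adjusted p = 0.840). Orc6 had 53.0, 55.4 and 55.1 CPM in KO libraries, against 49.5, 67.7 and 63.6 CPM in WT libraries (log2 fold change -0.14, SE 0.12, edgeR adjusted p = 0.829). In both genes the KO values lay between WT replicate 1 and the other WT libraries, as they did for all 4 genes of the role. Cdc6, whose promoter stretch is shown above, had 74.5, 83.6 and 80.3 CPM in KO libraries and 58.6, 100 and 103 CPM in WT libraries. Orc1 was the least abundant member of all per length, at 4.84 RPKM in KO and 5.47 RPKM in WT, while Cdt1, Orc6 and Cdc6 stood at 47.1, 44.6 and 32.6 RPKM over all libraries.

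The 6 subunits of the MCM helicase, Mcm2 to Mcm7, form a ring with a single copy of each, and their transcripts shared an order of libraries. Mean levels ran from 64.3 RPKM (Mcm4) to 121 RPKM (Mcm6), a 1.88-fold range. Mcm2, Mcm3 and Mcm5 stood at 78.2, 78.6 and 82.3 RPKM and Mcm7 at 109 RPKM. The range was 2.96-fold by the deposited lengths. The 5 single-strand binding and joining genes spanned 1.74-fold by principal transcript, so a narrow range was not particular to MCM. Mcm3 had 203, 229 and 234 CPM in KO libraries, against 185, 306 and 272 CPM in WT libraries (log2 fold change -0.20, SE 0.17, edgeR adjusted p = 0.840). Mcm6 had 303, 344 and 353 CPM in KO libraries, against 275, 431 and 406 CPM in WT libraries (log2 fold change -0.15, SE 0.16, edgeR adjusted p = 0.861). Every subunit had the same order of libraries: WT replicate 1 lowest, then KO replicate 1, then KO replicates 2 and 3, then WT replicate 3, and WT replicate 2 highest. The level in WT replicate 1 was 74.9% (Mcm4) to 85.0% (Mcm7) of the median of the others. Mcm7 overlaps the oppositely transcribed Cops6, which had 70.6 CPM. Mcm2 averaged 254 ± 23.4 CPM in KO and 273 ± 48.8 CPM in WT libraries (SD, n = 3 each, as in the means that follow). Mcm4 averaged 224 ± 12.5 CPM in KO and 238 ± 55.2 CPM in WT libraries, Mcm5 266 ± 15.4 CPM in KO and 291 ± 70.3 CPM in WT libraries, and Mcm7 311 ± 13.5 CPM in KO and 334 ± 54.7 CPM in WT libraries. In each the difference between means was smaller than the WT SD.

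Among the helicase activation and fork factors, Mcm10 and Cdc45 help to start the fork, Gins1 to Gins4 encode the GINS complex, and Clspn encodes claspin, a fork protein of the replication checkpoint. Gins2 gave the lowest p of all 49 members, with 18.7, 20.6 and 21.6 CPM in KO libraries, against 21.3, 29.5 and 29.8 CPM in WT libraries (log2 fold change -0.40, SE 0.15, unadjusted p = 0.0246, edgeR adjusted p = 0.713). KO replicate 3 lay above WT replicate 1, so the groups overlapped. The span of Gins2 overlaps that of Gse1, which is transcribed from the other strand at 545 CPM against 23.6 CPM for Gins2, and as the strand setting of the counting is not given its value is uncertain. The other GINS subunits had smaller differences: Gins4 had 43.1, 43.4 and 47.1 CPM in KO and 41.9, 49.95 and 45.7 CPM in WT libraries, and Gins1 had 26.7, 30.8 and 28.1 CPM in KO and 22.9, 33.3 and 33.9 CPM in WT libraries. Mcm10 had 61.0, 59.5 and 63.0 CPM in KO libraries, against 48.5, 84.2 and 81.9 CPM in WT libraries (log2 fold change -0.23, SE 0.19, edgeR adjusted p = 0.840). The KO values of Mcm10 were tightly grouped and lay between WT replicate 1 and the other WT libraries. Cdc45 had 86.9, 75.0 and 80.7 CPM in KO and 53.3, 95.9 and 96.5 CPM in WT libraries, and overlaps Ufd1 on the other strand at 91.8 CPM. Clspn averaged 175 ± 19.8 CPM in KO and 195 ± 55.1 CPM in WT libraries, and Gins3 averaged 31.3 ± 1.35 CPM in KO and 33.0 ± 6.11 CPM in WT libraries. Subunits of the GINS complex differed in level more than those of MCM, from 6.05 RPKM (Gins2) to 33.5 RPKM (Gins4).

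Of the primase and polymerase genes, Prim1 and Prim2 encode primase, Pola1 and Pola2 the polymerase alpha that works with it, Pole and Pole2 the leading-strand polymerase epsilon, and Pold1 and Pold2 the lagging-strand polymerase delta. Pold2 had 38.2, 35.0 and 37.3 CPM in KO libraries, against 36.2, 49.4 and 43.8 CPM in WT libraries (log2 fold change -0.23, SE 0.12, edgeR adjusted p = 0.763). Pole2 had 20.5, 19.7 and 20.5 CPM in KO libraries, against 14.95, 30.6 and 27.5 CPM in WT libraries (log2 fold change -0.27, SE 0.24, edgeR adjusted p = 0.841). Pole2 showed the pattern at its widest among the polymerases, with KO libraries almost equal to each other and a gap on either side; in Pold2, KO replicate 2 fell below WT replicate 1. Prim1 had the highest level per length of the role, 67.4 RPKM in KO and 68.0 RPKM in WT, and the fold change nearest to 0 of all 49 members, with 117, 97.9 and 105 CPM in KO libraries and 70.8, 126 and 126 CPM in WT libraries. KO replicate 2 was the lowest KO library for all 8 genes of the role. The catalytic subunit Pold1 averaged 166 ± 5.16 CPM in KO and 175 ± 37.7 CPM in WT libraries, Pole averaged 118 ± 6.79 CPM in KO and 131 ± 33.8 CPM in WT libraries, and Pola1 averaged 84.1 ± 11.0 CPM in KO and 93.7 ± 25.7 CPM in WT libraries. The remaining subunits of the role were flatter, Pola2 averaging 93.2 ± 6.0 CPM in KO and 95.5 ± 12.6 CPM in WT libraries and Prim2 52.3 ± 2.37 CPM in KO and 54.2 ± 8.51 CPM in WT libraries. WT replicate 1 was at 66.6% of the median of the others for Pola1 and at 82.4% for Pola2.

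Pcna encodes the sliding clamp and Rfc1 to Rfc5 the complex that loads it. Pcna stood at 227 RPKM in KO and 242 RPKM in WT libraries, far above the loader subunits at 16.9 (Rfc2) to 40.8 RPKM (Rfc4). The place of Rfc2 as the lowest depends on the length taken, 4995 bases of principal transcript against a deposited length of 1518 bases. Pcna had 343, 334 and 358 CPM in KO libraries, against 266, 416 and 418 CPM in WT libraries. Pcna has a pseudogene copy, so reads that align to both may be missing from its count. Rfc2 had 76.2, 84.9 and 78.8 CPM in KO libraries, against 80.2, 95.7 and 90.1 CPM in WT libraries (log2 fold change -0.15, SE 0.09, edgeR adjusted p = 0.776). Rfc4 had 46.9, 44.5 and 47.1 CPM in KO libraries, against 38.4, 65.8 and 58.1 CPM in WT libraries (log2 fold change -0.23, SE 0.18, edgeR adjusted p = 0.821). The loader subunits did not all follow Pcna: WT replicate 1 of Rfc2 lay among the KO libraries, whereas in Rfc4 it lay below them. Rfc4 overlaps Eif4a2, transcribed from the other strand at 355 CPM, so its counts are uncertain. Rfc1, the large subunit, averaged 156 ± 13.4 CPM in KO and 165 ± 21.9 CPM in WT libraries. Rfc3 averaged 40.0 ± 1.67 CPM in KO and 45.0 ± 11.3 CPM in WT libraries and Rfc5 averaged 73.5 ± 2.72 CPM in KO and 76.7 ± 13.8 CPM in WT libraries.

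For single-strand binding and Okazaki fragment joining, Rpa1, Rpa2 and Rpa3 encode the replication protein A that coats single-stranded DNA, Fen1 a nuclease that trims lagging-strand fragments, and Lig1 the ligase that seals them. Rpa1 had the smallest spread over WT libraries of any member, with 265, 271 and 299 CPM in KO libraries, against 292, 306 and 301 CPM in WT libraries (log2 fold change -0.11, SE 0.07, edgeR adjusted p = 0.790). Rpa2 had 62.2, 66.4 and 77.1 CPM in KO libraries, against 63.3, 89.9 and 82.3 CPM in WT libraries (log2 fold change -0.19, SE 0.14, edgeR adjusted p = 0.804). In both genes a KO library was lowest of all, while Lig1 had the common order, with 212, 202 and 217 CPM in KO libraries and 169, 278 and 264 CPM in WT libraries. Fen1 was, beside E2f2, the only member with a positive fold change; it had 107, 97.2 and 109 CPM in KO libraries and 71.1, 120 and 112 CPM in WT libraries, and its log2 fold change was -0.15 without WT replicate 1. Rpa3 averaged 40.4 ± 1.12 CPM in KO and 42.8 ± 5.52 CPM in WT libraries, with the common order of libraries.

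Among the deoxynucleotide supply genes, Rrm1 and Rrm2 encode ribonucleotide reductase, Tyms thymidylate synthase and Tk1 thymidine kinase. Values in WT replicate 1 were low for all 4, from 58.1% (Tyms) to 65.5% (Rrm2) of the median of the other libraries. Rrm2 had 574, 470 and 552 CPM in KO libraries, against 376, 657 and 663 CPM in WT libraries (log2 fold change -0.09, SE 0.20, edgeR adjusted p = 0.947). Tyms had 135, 99.3 and 119 CPM in KO libraries, against 78.4, 144 and 151 CPM in WT libraries (log2 fold change -0.08, SE 0.23, edgeR adjusted p = 0.959). The direction of both turned when WT replicate 2, WT replicate 3 or KO replicate 2 was left out, so no direction is given for them. KO replicate 2 was the lowest KO library for all 4 genes. Rrm1 averaged 419 ± 46.9 CPM in KO and 428 ± 114 CPM in WT libraries and Tk1 averaged 86.4 ± 9.39 CPM in KO and 88.1 ± 25.2 CPM in WT libraries, with WT replicate 1 at 64.9% and 62.6% of the median of the others.

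Among the genes that copy chromatin and methylation, Dnmt1 encodes the maintenance DNA methyltransferase and Uhrf1 the protein that recruits it to newly copied DNA; Chaf1a and Chaf1b encode subunits of the histone chaperone CAF-1, and Slbp binds the stem-loop of histone mRNAs. Chaf1b had 50.6, 49.8 and 40.9 CPM in KO libraries, against 46.0, 65.0 and 59.0 CPM in WT libraries (log2 fold change -0.27, SE 0.14, edgeR adjusted p = 0.767). Uhrf1 had 434, 434 and 441 CPM in KO libraries, against 343, 573 and 564 CPM in WT libraries (log2 fold change -0.18, SE 0.18, edgeR adjusted p = 0.857). The 3 KO values of Uhrf1 were the closest to each other of any member, and its WT libraries lay on both sides of them. Dnmt1 had 622, 562 and 685 CPM in KO libraries and 461, 724 and 774 CPM in WT libraries. Slbp averaged 162 ± 10.2 CPM in KO and 172 ± 47.6 CPM in WT libraries, and Chaf1a averaged 98.2 ± 9.71 CPM in KO and 107 ± 31.98 CPM in WT libraries, both with KO between WT replicate 1 and the other WT libraries. Per length, Uhrf1, Dnmt1 and Slbp (130, 119 and 87.4 RPKM) stood well above Chaf1b and Chaf1a (27.0 and 18.6 RPKM).

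**Figure D3:**
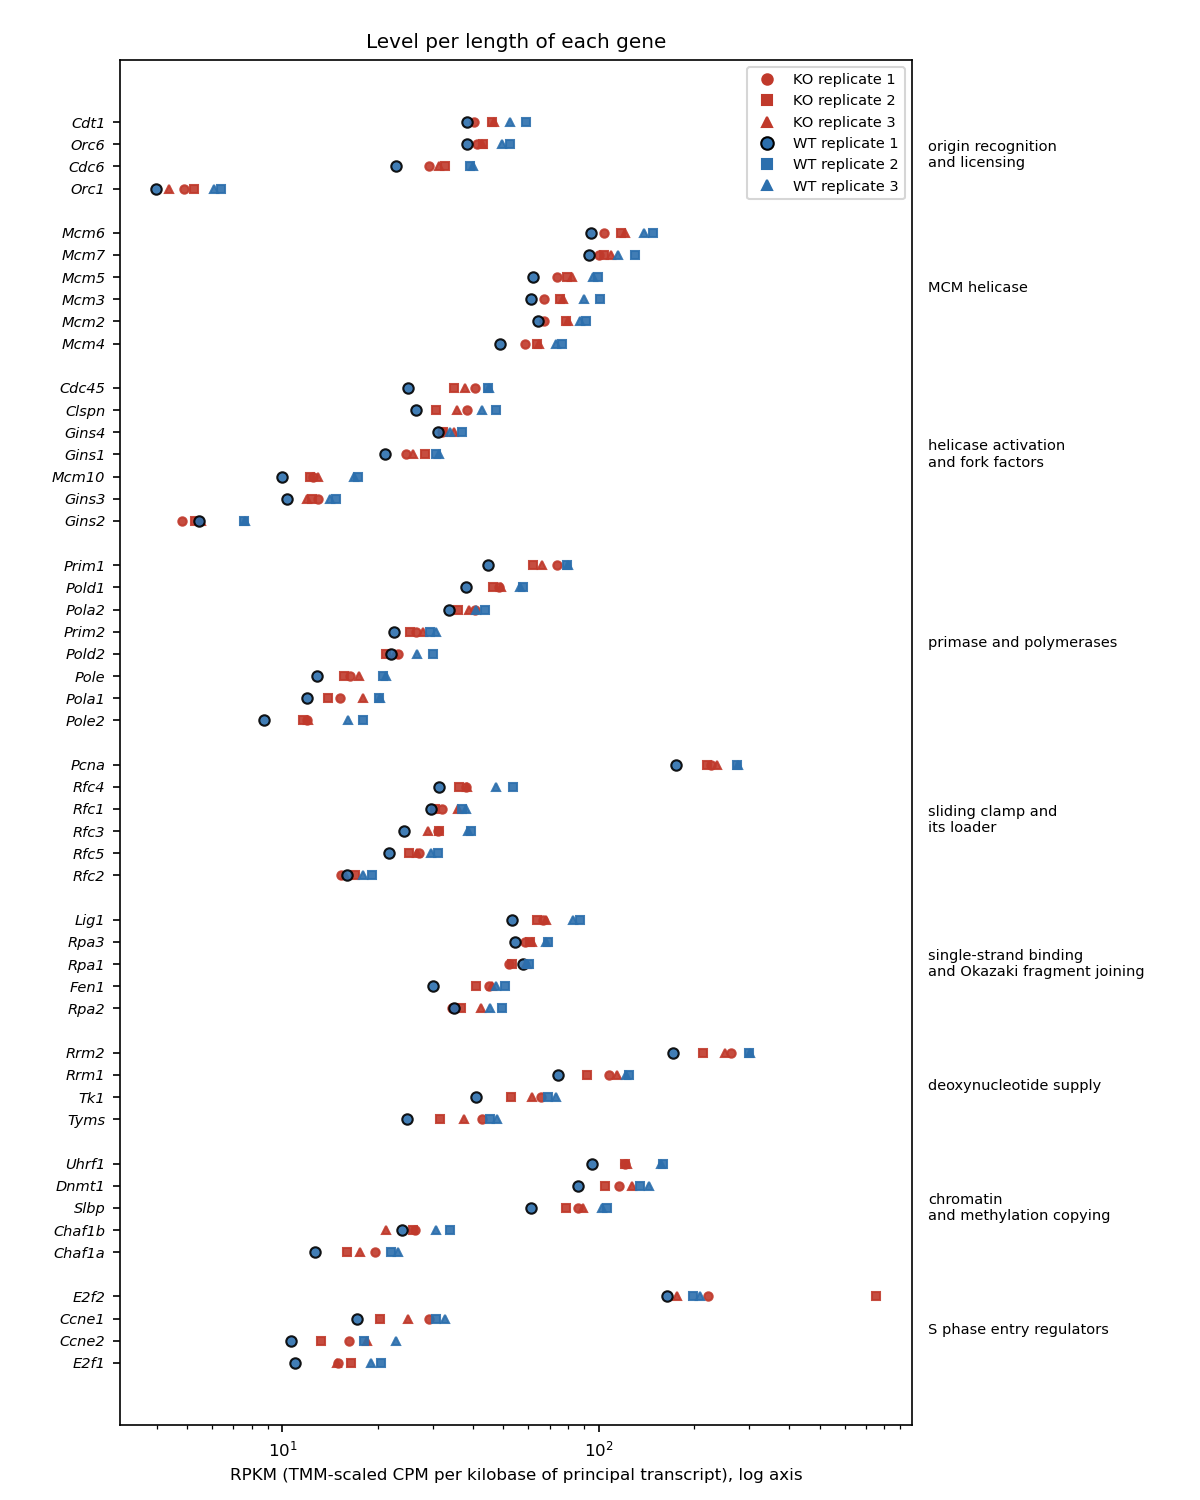
Level of each gene per kilobase of its principal transcript (RPKM, log axis) in each library, grouped by role. Genes span 5.16 RPKM (Orc1) to 288 RPKM (E2f2) as means over all libraries, the mean of E2f2 resting on KO replicate 2 (754 RPKM). The 6 MCM subunits span 1.88-fold by this length, and outlined blue circles (WT replicate 1) sit at the low end of most rows.

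Among the S phase entry regulators, E2f1 and E2f2 encode activating E2F factors, and Ccne1 and Ccne2 encode E-type cyclins, which activate CDK2 at the start of S phase. E2f1 had 40.9, 45.2 and 40.8 CPM in KO libraries, against 29.8, 55.9 and 52.0 CPM in WT libraries (log2 fold change -0.12, SE 0.21, edgeR adjusted p = 0.926), and its sign turned without WT replicate 2. Ccne1 had 58.1, 40.8 and 49.7 CPM in KO libraries and 34.4, 61.0 and 65.5 CPM in WT libraries, and Ccne2 had 48.6, 39.7 and 55.6 CPM in KO libraries and 32.04, 54.3 and 68.7 CPM in WT libraries. WT replicate 1 was the lowest library in all 3, at 59.0% (Ccne2) to 66.1% (E2f1) of the median of the others. Ccne2 overlaps the oppositely transcribed Ints8, at 74.7 CPM.

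E2f2 was different in level and in pattern. Per length it averaged 384 RPKM in KO and 191 RPKM in WT libraries, where E2f1 stood at 15.5 RPKM in KO and 16.8 RPKM in WT. The KO mean rests on KO replicate 2, at 754 RPKM; in each of the other 5 libraries Rrm2 and Pcna were above E2f2. It had 1051, 3573 and 841 CPM in KO libraries, against 777, 944 and 991 CPM in WT libraries (log2 fold change 1.01, SE 0.49, edgeR adjusted p = 0.762). KO replicate 2 alone was high, at 378% of the median of the other 5 libraries, while KO replicate 1 lay just above the WT range and KO replicate 3 inside it. Leaving out KO replicate 2 brought the fold change close to 0 (0.07 on the log2 scale, SE 0.14, edgeR adjusted p = 0.914). The excess was not shared by its neighbours on chromosome 4 or by the other members in that library: Id3 was at 103% and Zfp46 at 100.3% of the median of the other libraries in KO replicate 2, and the other 48 members at 70.2% to 110%.

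**Figure D4:**
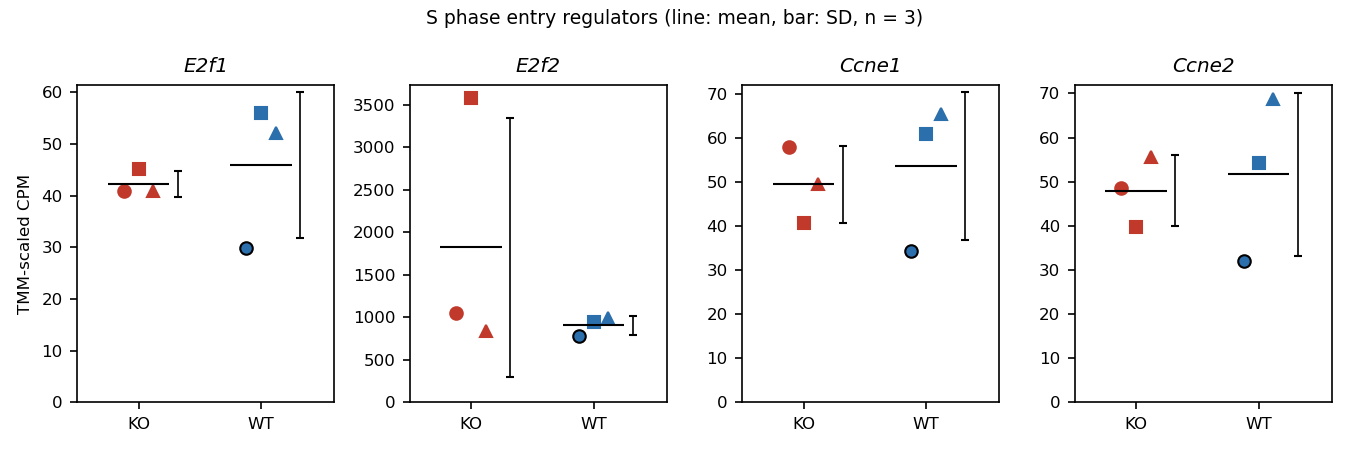
TMM-scaled CPM of the 4 S phase entry regulators in each library, KO in red and WT in blue; circles, squares and triangles are replicates 1, 2 and 3, lines are group means and bars show the SD (n = 3). WT replicate 1 (outlined) is lowest for all 4 genes, and KO replicate 2 of E2f2, at 3573 CPM, lies far above the other 5 libraries.

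Which library was lowest within KO, and which of WT replicates 2 and 3 was higher, was counted for each role. KO replicate 1 was the lowest KO library for all 6 MCM genes and 3 of 4 licensing genes, and KO replicate 2 for 8 of 8 primase and polymerase genes and 4 of 4 deoxynucleotide genes. WT replicate 2 was above WT replicate 3 for 6 of 6 MCM genes, 5 of 5 single-strand binding and joining genes and 3 of 4 licensing genes, and below it for 3 of 4 deoxynucleotide genes and 3 of 4 entry regulators. For mitosis genes, KO replicate 2 was the lowest KO library and WT replicate 3 was above WT replicate 2 for 38 of 38. Other roles were mixed: of 7 helicase activation and fork factors, KO replicates 1, 2 and 3 were lowest for 3, 3 and 1. WT replicate 2 was above WT replicate 3 for 4 of 8 primase and polymerase genes. The share of all tested genes is not given here, so these counts are not read as differences between roles.

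Genes of the neighbouring programmes were read from the same fit. Of 53 further replication and S phase genes, 0 were called (0.0383% of all tested genes). At an unadjusted p under 0.05, 1 was lower in KO (3.31% of all tested genes) and none higher (3.4%), and the median log2 fold change was -0.04. WT replicate 1 was lowest for 43 (25.8% of all tested genes), and KO lay between it and both other WT libraries for 32 (4.32%). Dscc1, which encodes a subunit of an alternative clamp loader, had 7.86, 8.94 and 7.38 CPM in KO libraries, against 8.87, 12.8 and 11.3 CPM in WT libraries (log2 fold change -0.45, SE 0.17, edgeR adjusted p = 0.715). Timeless, a fork protection factor, had 94.1, 114 and 104 CPM in KO libraries, against 95.7, 151 and 129 CPM in WT libraries (log2 fold change -0.27, SE 0.16, edgeR adjusted p = 0.776). For both genes a KO library was the lowest of all.

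Of 38 mitosis genes, 0 were called (0.0383% of all tested genes) and 0 had an unadjusted p under 0.05 (3.31% lower and 3.4% higher). WT replicate 1 was lowest for all 38, where it was for 25.8% of all tested genes, at a median of 57.3% of the other libraries. KO lay between it and both other WT libraries for 7 of the 38, against 40 of the 49 members and 4.32% of all tested genes. The median over the list of log2 CPM minus the gene's mean was 0.24, -0.15 and 0.12 in KO libraries, against -0.66, 0.13 and 0.32 in WT libraries. The median log2 fold change was 0.10, opposite in sign to that of the members, and without WT replicate 1 it was -0.15. Plk1, a mitotic kinase, had 199, 146 and 167 CPM in KO libraries, against 95.9, 168 and 179 CPM in WT libraries (log2 fold change 0.21, SE 0.22, edgeR adjusted p = 0.865, and -0.02 without WT replicate 1). Aurka, another mitotic kinase, had 122, 94.2 and 112 CPM in KO libraries, against 61.5, 102 and 122.6 CPM in WT libraries (log2 fold change 0.19, SE 0.23, edgeR adjusted p = 0.881, and -0.04 without WT replicate 1).

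**Figure D5:**
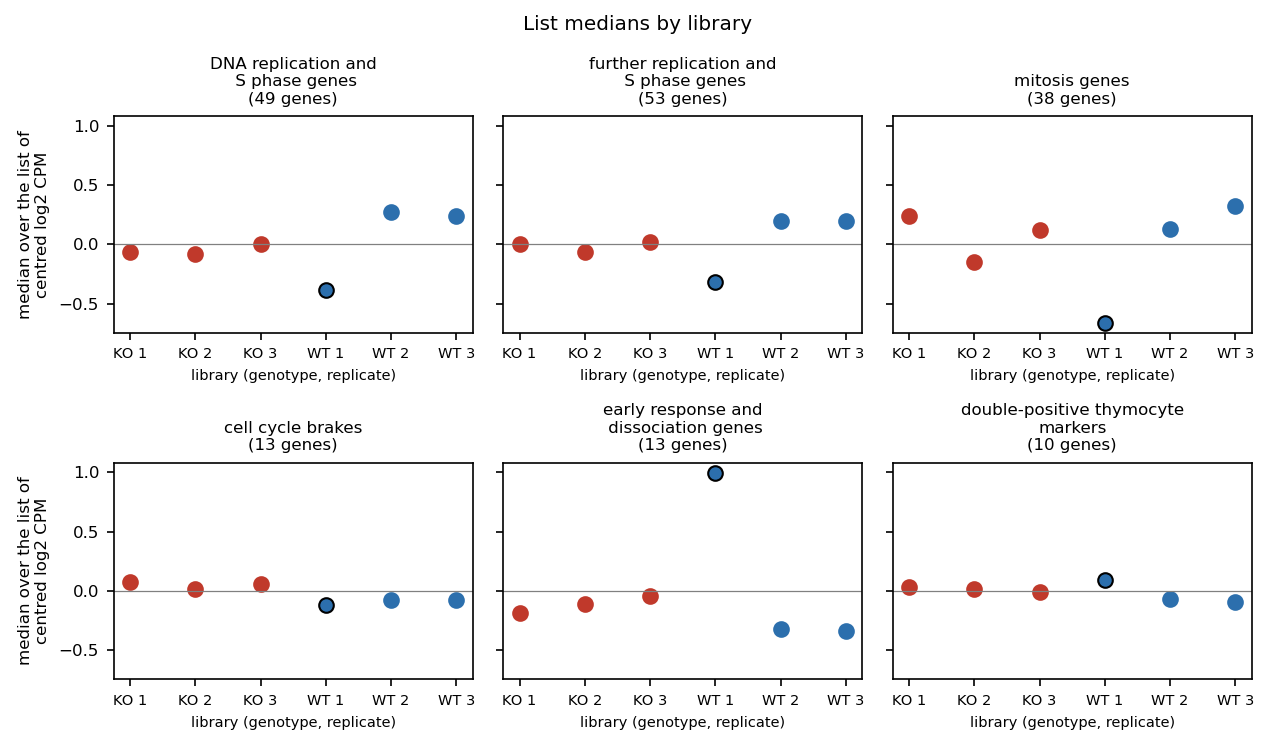
Median over each list of log2 CPM minus the gene's mean over the 6 libraries, by library, KO in red and WT in blue. WT replicate 1 (outlined) is lowest for the 49 replication genes (-0.39), the further replication genes (-0.32), the mitosis genes (-0.66) and the cell cycle brakes (-0.12). It is highest for the early response genes (0.997) and the DP markers (0.09).

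Cell cycle brakes and early response genes had other orders. The list median of the brakes was again lowest in WT replicate 1 (-0.12, with -0.08 in both other WT libraries). In KO libraries it was 0.08, 0.02 and 0.06, above all WT libraries. WT replicate 1 was lowest for 4 of the 13 brakes tested and highest for 4, where it was for 25.8% and 27.7% of all tested genes. Of 13 brakes tested, 0 were called, 3 were higher in KO at an unadjusted p under 0.05 and none lower, where 3.4% of all tested genes were higher and 3.31% lower, with a median log2 fold change of 0.04. Cdkn1a, which encodes the CDK inhibitor p21, was low throughout, with 2.55, 1.39 and 1.46 CPM in KO libraries, against 0.702, 0.515 and 0.752 CPM in WT libraries (log2 fold change 1.45, SE 0.34, edgeR adjusted p = 0.488). Ccng1, a p53 target that encodes cyclin G1, had 110, 96.1 and 105 CPM in KO libraries, against 86.0, 84.4 and 81.4 CPM in WT libraries (log2 fold change 0.31, SE 0.07, edgeR adjusted p = 0.488). For both the KO and WT libraries did not overlap, and WT replicate 1 lay close to the other WT libraries. Both were named for having the lowest p of the list, so this describes them alone. Over the 13 brakes, KO lay above WT throughout for 3 (6.58% of all tested genes) and below throughout for 0 (5.97%). Fold changes were negative for 4 of the 13, down to -0.48.

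Of 13 early response and dissociation genes tested, 0 were called, 1 was higher and 3 lower in KO at an unadjusted p under 0.05 (3.4% and 3.31% of all tested genes), and WT replicate 1 was the highest library for 11, where it was for 27.7% of all tested genes, at a median of 214% of the others. Fos, whose values are given above, was lower in KO by the mean without passing the test (log2 fold change -2.97, SE 1.08, edgeR adjusted p = 0.713), and leaving out WT replicate 1 gave -0.51. Hspa1b, an inducible heat shock gene, had 2.75, 2.98 and 1.92 CPM in KO libraries, against 1.81, 1.12 and 1.23 CPM in WT libraries (log2 fold change 0.87, SE 0.29, edgeR adjusted p = 0.690). All 3 KO libraries lay above WT replicate 1 for this gene. Of the 10 DP markers, 5 were highest in WT replicate 1, where 27.7% of all tested genes were.

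In the authors' deposited table, 0 of the 49 members had an adjusted p under 0.05, where 0.762% of the genes with one were called. The authors labelled these values as paired, so their model may differ from the fit by group alone reported here. Gins2 was again the member with the lowest p in the authors' deposited table, with a log2 fold change of -0.40 (SE 0.16, adjusted p = 0.419). E2f2 had a log2 fold change of 0.89 in the authors' deposited table, with an adjusted p of 0.949. Of the 49 members, 10 share part of their span with a gene on the other strand counted at a CPM above 0.1 of their own, and for 4 (Gins2, Rfc4, Ccne2 and Cdc45) that gene was counted above the member.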

How the data were processed

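Per the labels' protocols, RNA of FACS-sorted thymocytes went into Illumina TruSeq libraries. The submitters' processing notes name Trimmomatic 0.33, STAR 2.5.2, HTSeq, DESeq2 and build mm10. The counting mode, strand setting and annotation are not given there. Each library's raw counts were deposited by gene, alone and in 1 table with gene lengths. The authors also deposited a table with a normalized signal (counts divided by a size factor), log2 fold changes with standard errors, a test score (named stat, per the file headers) and p-values with adjusted p-values. Rows that name no gene stayed out of library sizes: reads without a feature were 12.3% to 15.2% of counted reads, multiple alignments 22.6% to 23.9% and ambiguous reads 0.653% to 0.701%. Replicates of a group differed beyond sampling noise (chi-square per degree of freedom 17.3 to 56.9). Of 43430 identifiers, 42462 matched the name table.

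Counts were tested with edgeR 4.0.16 in R 4.3.3 (TMM, filterByExpr by group, quasi-likelihood, two-sided, group alone, Benjamini-Hochberg over all tested genes, threshold 0.05), with SE as the log2 fold change over the square root of F. DESeq2 1.42.0, limma 3.58.1 (voom, with and without library weights), other scalings, filters, blocks and left-out libraries were alternatives. The deposited gene lengths were 0.304 (Rfc2) to 8.23 (Lig1) times the GENCODE M21 principal transcript length, and what they measure is not known. RPKM therefore used the principal transcript (the longest if several were marked), a choice made after seeing the data. It affects levels between genes and not KO against WT. Fold changes with SE and adjusted p are given for Mettl14 and for the 2 genes with the lowest p in each of the 9 roles and each further list. Members, roles and lists were chosen with earlier results of these data known. Intervals of counting error are not given, and the spread between libraries is used in their place. One of the marker results is not reported here.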

Additional observations from a re-analysis of the deposited data

How the results depend on the processing

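No member was called under any of the 15 alternatives run, and the members' median log2 fold change stayed negative in all of them, from -0.31 to -0.01 over the 6 leave-one-out fits. Genes called over all genes were 5 in the fit reported, 88 with DESeq2, 30 with no filter on low counts, and 4 to 23 when 1 library was left out (14 without KO replicate 2, 8 without WT replicate 1 and 23 without WT replicate 3). Members at an unadjusted p under 0.05 were 1 in the fit reported, beside 3.31% of all tested genes lower and 3.4% higher. They were 14 with library quality weights, where WT replicate 1 had a weight of 0.375. With no filter they were 2 (Gins2 lower and E2f2 higher). When 1 library was left out they were 0 to 44 (44 without WT replicate 1, all lower in KO, beside 4.23% of all genes tested). For the weights, the missing filter and the other left-out libraries the share of all genes is not given here, so those counts cannot be set against it. Members whose KO and WT libraries did not overlap were 0 in the values reported, beside 5.97% of all tested genes with KO below and 6.58% with KO above. They were 2 with upper-quartile scaling (Rpa1 and Gins2, named after their values were seen), where the share of all genes is not given. With 1 library left out they were 0 to 46 (46 without WT replicate 1, all with KO below, beside 12.8% of all tested genes). WT replicate 1 was below all other libraries for 40 to 44 members under every scaling and leave-out tried. The log2 fold change of Mettl14 passed the threshold with DESeq2 (-0.48, adjusted p = 0.001995) and stayed between -0.53 and -0.43 when 1 library was left out, with none of those passing. Negative fold changes numbered 47 of 49 members in the fit reported, 33 with replicates 1 and 2 only, 28 without WT replicate 2, 29 without WT replicate 3, 37 without KO replicate 2 and 43 to 48 in the other alternatives. Among the genes named with a fold change and adjusted p, signs turned for Rrm2 (0.0187 with replicates 1 and 2 only, -0.31 to 0.0482 with 1 library left out), Tyms (0.0809, and -0.32 to 0.0889), E2f1 (0.0084, and -0.35 to 0.0481), Plk1 (-0.0194 to 0.38) and Aurka (-0.0422 to 0.42); the cause was not tested beyond which library was left out. The deviations of libraries with the same replicate number correlated at -0.149, 0.0796 and 0.192. With 3 libraries per group these values cannot decide whether equal numbers share a litter or day, and no label says so. The fit with the replicate block called 5 genes and 0 members, had 1 member at an unadjusted p under 0.05 and a median of -0.08. The MCM subunits spanned 1.88-fold in RPKM by principal transcript and 2.96-fold by the deposited length, an alternative chosen after seeing the data. The 3 libraries per group and the spread of WT limit the fold change that could be called.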
